A study of Mus musculus with 3 samples.

Results

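The genes described here are 10 components of the integrated stress response and the unfolded protein response: Eif2s1, Eif2ak3, Atf4, Ddit3, Trib3, Chac1, Asns, Ppp1r15a, Hspa5 and Xbp1. They were chosen by name as members of these pathways, and the list was selected on the summed Eif2s1 counts of explant neurogenic progenitors, which differed between 500 nM and 0 nM of agonist. All 10 were found among the 19946 gene symbols of the 3 libraries. Of these symbols 18823 were measured in the explants and 17851 at P0, each time with all 10. At P14 17849 were measured with 9 of the 10, and Chac1 was not analysed there.

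Single-cell RNA-seq was used to compare retinas in which signaling through the somatostatin receptor Sstr2 was raised or removed. In the first library, retinas of CD1 wild-type mice were placed in culture at embryonic day 14, grown for 6 days on Nuclepore membranes and given a small-molecule Sstr2 agonist at 0, 5, 50 or 500 nM, with 2 explant samples per dose. The other libraries held littermates of mixed C57BL/6 and CD1 background at P0 and at P14, with 1 retina sample of genotype +/+, 2 of +/- and 2 of -/- for a targeted deletion of Sstr2. Every sample was dissociated with papain, marked with a lipid-anchored barcode oligo (MULTI-seq) and pooled before 10x 3′ capture, so that all explants share 1 library and all retinas of an age another. How many retinas went into a sample is not given in the sources used here, and p-values measure the spread between these samples. A sample is named by its dose or genotype and a number that only tells samples apart.

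The integrated stress response turns stress into a brake on protein synthesis. Kinases such as PERK, the product of Eif2ak3, phosphorylate eIF2α, the product of Eif2s1; global translation falls while the mRNA of the transcription factor ATF4 is translated more, and ATF4 then switches on genes of amino acid supply, cell death and feedback. The unfolded protein response shares PERK with it and adds the IRE1 and ATF6 sensors of the endoplasmic reticulum. IRE1 acts through Xbp1, and both sensors raise chaperones such as Hspa5. Much of this control acts on phosphorylation, splicing and translation, which counts of mRNA do not measure.

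For 4 of the 10 genes, the 250 bases before the RefSeq transcription start held a match to a motif of these pathways. For these 4, 30 bases around each match are shown. Capitals mark the match on a 5′ to 3′ reading of the gene's own strand, and the sequences and starts are those of RefSeq on GRCm38.p6.
Chac1: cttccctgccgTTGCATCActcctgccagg
Asns: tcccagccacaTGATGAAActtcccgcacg
Ppp1r15a: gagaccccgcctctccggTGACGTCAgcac
Hspa5: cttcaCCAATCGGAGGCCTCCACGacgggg

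The Chac1 stretch is chr2:119351038-119351067 on the plus strand, and its match lies 193 to 186 bases before the start. The Asns stretch is chr6:7693214-7693243 on the minus strand, with the match 23 to 16 bases before the start. Both match the core of the element that ATF4 binds with C/EBP partners, TGATGNAA, Chac1 on the opposite strand; 3.45% of 32817 RefSeq promoters of this length hold it on either strand. The Ppp1r15a stretch is chr7:45526269-45526298 on the minus strand, with a TGACGTCA core of cAMP-response elements 12 to 5 bases before the start, which 1.55% of promoters hold. The Hspa5 stretch is chr2:34772020-34772049 on the plus strand and holds an ER stress element 65 to 47 bases before the start, found in 0.113% of promoters. The 250 bases of the other members, Eif2s1 at chr12:78861822-78862071 among them, held none of these letters.

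The targeted gene and the labels were checked first. In P0 neurogenic progenitors Sstr2 stood at 112 CPM (UMI counts scaled to a common total per sample and cell type) in the +/+ retina, at 189 and 248 in the +/- retinas and at 294 and 375 in the retinas labelled -/-. Sstr2 RNA was thus present in all 5 retinas and was highest in both labelled -/-. Where the deleted part lies relative to the 3′ end that the assay counts is not given in the sources used here, so these counts do not check the genotypes, which are written below as labelled. Retinas at P14 gave no Sstr2 UMI in rods, cones, bipolar cells or Müller glia.

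The explant library held 5607 cells and 1281682 to 4237324 UMIs per sample, the P0 library 5706 cells and 8822880 to 10793649, and the P14 library 3298 cells and 1266730 to 5886669. Every deposited explant cell had under 2500 genes, while P0 cells reached 7324. Between 4 and 9 cell barcodes were shared by any pair of libraries. Cells with a UMI of Xist, which is transcribed in females, made up 99.3% and 98.3% of the 500 nM explants and 98.7% of 5 nM explant 1, against 57.7% to 62.4% of the other explants, so dose and sex were not balanced. At P0 such cells made up 2.9% of the +/+ retina and 99.4% and 1.9% of the +/- retinas. In the P0 retinas labelled -/- they made up 2.4% and 99.4%. At P14 they made up 72.7% of +/- retina 2 and 1.8% to 4.3% of the others. The deposited cell types carried their own marker genes, with differences in some of them. Photoreceptors of P0 also held 8 primary progenitor markers at a sum of 1341 to 2232 CPM, against 287 to 672 CPM in explant photoreceptors. The summed level of 10 retinal ganglion cell (RGC) markers was 3640 to 5086 CPM in explant cells called RGCs and 11043 to 12869 CPM in those of P0. The authors state that their explants lack viable RGCs. Amacrine cells of P14 held 7 of 7 amacrine markers at a sum of 1906 to 2861 CPM, beside 5 horizontal cell markers at 0 to 5726 CPM and 7 Müller markers at 344 to 3694 CPM. Values below are CPM of all UMIs summed over the cells of 1 type in 1 sample. Levels are not compared between genes.

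Eif2s1 encodes eIF2α, the subunit of translation factor eIF2 whose phosphorylation is the switch of the stress response, and lies at chr12:78861819-78887010. In explant neurogenic progenitors, whose values were used in choosing the genes, Eif2s1 stood at 198 and 186 CPM without agonist, 132 and 145 at 5 nM, 111 and 119.5 at 50 nM, and 112 and 86.4 at 500 nM. Every treated explant lay below both untreated ones, an order whose share over all genes was not counted. The mean went from 192 CPM at 0 nM to 139, 115 and 99.4 CPM with rising dose. The fitted log2 fold change of 500 nM from 0 nM was -0.98, given as a description without a test. Both 500 nM explants lay below both 0 nM explants for 16.9% of the genes tested in these cells.

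**Figure D1:**
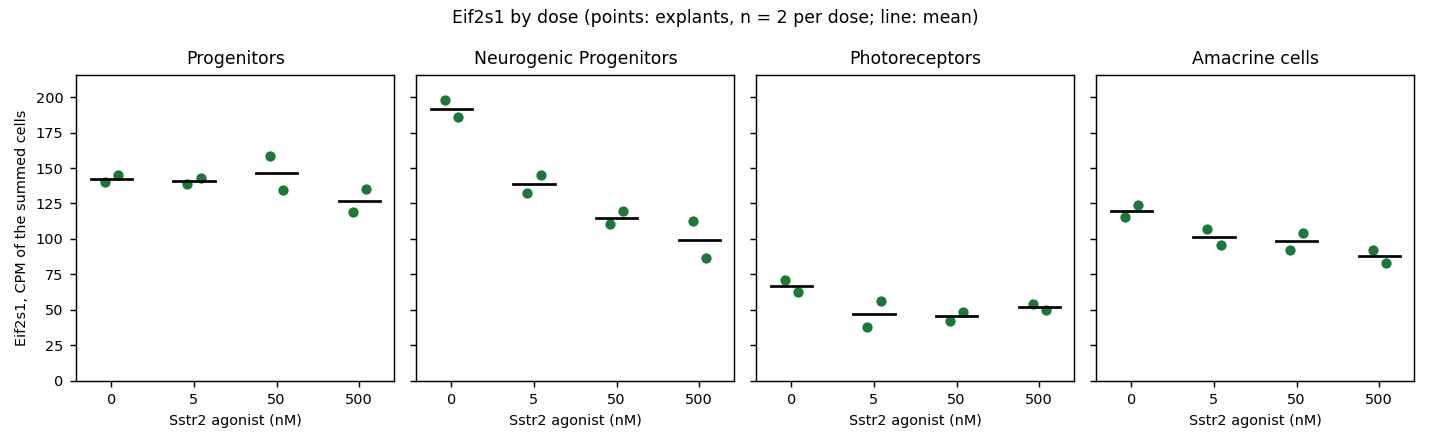
Eif2s1 level in CPM of the summed cells (vertical axis) at each dose of Sstr2 agonist in nM (horizontal axis), with 1 panel per explant cell type, points for the 2 explants of a dose and a line at the mean of each dose; the panel titled Progenitors holds the primary progenitors. The mean in neurogenic progenitors goes from 192 CPM at 0 nM to 99.4 CPM at 500 nM, and in primary progenitors from 143 to 127 CPM.

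In primary progenitors Eif2s1 was 140 and 145 CPM in the untreated explants, 139 and 143 in the 5 nM explants, 159 and 135 in the 50 nM explants, and 119 and 135 in the 500 nM explants. In photoreceptors it was 71.3 and 62.7 CPM without agonist, 37.6 and 56.0 at 5 nM, 42.1 and 48.6 at 50 nM, and 53.9 and 49.7 at 500 nM. In amacrine cells it was 116 and 124 CPM without agonist, 107 and 95.9 at 5 nM, 92.4 and 104 at 50 nM, and 92.4 and 83.3 at 500 nM. In each of these cell types both 500 nM explants lay below both untreated ones, which held for 14.9% of all genes in primary progenitors, 18.3% in photoreceptors and 18% in amacrine cells. No difference passed the test: by edgeR's quasi-likelihood test the log2 fold change of 500 nM from 0 nM was -0.21 in primary progenitors (SE 0.16, adjusted p = 0.738), -0.38 in photoreceptors (SE 0.23, adjusted p = 0.95) and -0.43 in amacrine cells (SE 0.16, unadjusted p = 0.00951, adjusted p = 0.666). Whether the change in neurogenic progenitors differed from that in other cell types was not tested.

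Since dose and sex were not balanced, Eif2s1 is also given for Xist-positive and Xist-negative neurogenic progenitors of the 5 explants that held both. It stood at 214 against 171 CPM in 0 nM explant 1, 220 against 142 in 0 nM explant 2, 151 against 134 in 5 nM explant 2, 121 against 98.0 in 50 nM explant 1, and 141 against 76.4 in 50 nM explant 2. The Xist-positive cells were higher in 5 of 5 explants, by 0.46 ± 0.29 on the log2(CPM + 1) scale (SD, n = 5). This is a description with no test, since these counts were used in choosing the genes and an exact permutation of 5 pairs cannot give a p below 0.0625. The part of sex in the dose difference was not tested. In the other cell types the same difference was -0.02 in primary progenitors, -0.37 in photoreceptors and -0.14 in amacrine cells, each positive in 2 of 5 explants.

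Of the members' other values in explant neurogenic progenitors, Atf4, the transcription factor at the centre of the pathway, stood at 139 and 124 CPM without agonist, 176 and 176 at 5 nM, 125 and 178 at 50 nM, and 144 and 159 at 500 nM. Both 500 nM values of Atf4 were above both untreated ones, as held for 18.7% of genes. Ddit3, which encodes the death-associated factor CHOP, was 11.9 and 6.88 CPM in the untreated explants and 18.3 and 19.9 in those given 500 nM, on 2 to 12 UMIs per explant. The chaperone gene Hspa5 ranged from 143 to 202 CPM over the 8 explants, and the phosphatase subunit gene Ppp1r15a from 18.7 to 33.7 CPM, with the doses overlapping in each.

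Outside the neurogenic progenitors, 21 pairs of a member and a cell type had enough counts to be tested against dose. None was called at 500 nM against 0 nM, where 0.222% of all tests were, with 1 of 21 at an unadjusted p under 0.05 against 6.63% of all tests; DESeq2 called 0 of 21 with 0 at an unadjusted p under 0.05, and limma on the authors' corrected values called 0 of 22 with 1. At 50 nM 0 of 21 were called (0.0794% of all tests) with 1 at an unadjusted p under 0.05 in edgeR, 0 in DESeq2 and 1 of 22 in limma. That one was Eif2s1 in photoreceptors, with a log2 fold change of -0.53 (SE 0.24, edgeR unadjusted p = 0.0295, adjusted p = 0.578). At 5 nM 0 of 21 were called (0.0595% of all tests), with 0 at an unadjusted p under 0.05 in all 3 tools. Asns, which encodes asparagine synthetase, had both 500 nM explants above both untreated ones in primary progenitors, where 22.8% of genes did, and in amacrine cells, where 16.6% did. Its log2 fold changes there were 0.80 (SE 0.47, edgeR adjusted p = 0.654) and 0.72 (SE 0.50, edgeR adjusted p = 0.978). Atf4 in amacrine cells lay the other way from neurogenic progenitors, at 138.7 and 142.8 CPM at 500 nM, just below the untreated 143.02 and 163 CPM, with a log2 fold change of -0.08 (SE 0.14, edgeR adjusted p = 0.983). Hspa5 in RGCs was 162 and 189 CPM at 500 nM and 237 and 387 CPM in untreated explants, on 5 to 39 UMIs each, a non-overlap that 15.8% of genes showed there (log2 fold change -0.66, SE 0.54, edgeR adjusted p = 0.781).

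Among 16 other genes of the eIF2 complex, its exchange factor, kinases and phosphatases, 1 passed the edgeR test at 500 nM in primary progenitors (16 tested), photoreceptors (14) and amacrine cells (15). It was Eif2s3y in each, the Y-linked gene of the eIF2γ subunit, with log2 fold changes of -6.38, -3.62 and -6.06, and it moved with the share of Xist-positive cells. None of the listed ATF4 and CHOP target genes or genes of the IRE1 and ATF6 arms was called at any dose in the cell types tested. Of the heat shock and immediate early genes, Jun was called in amacrine cells at 50 nM with a log2 fold change of -1.004 (edgeR adjusted p = 0.0312).

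The loss of Sstr2 was then examined at P0. In neurogenic progenitors Eif2s1 stood at 119.7 CPM in the +/+ retina, 124 and 131 in the +/- retinas and 139 and 127 in the retinas labelled -/-. The values overlapped between +/- and -/-, with log2 fold changes of the retinas labelled -/- of 0.14 from +/+ (SE 0.16, edgeR adjusted p = 0.968) and 0.07 from +/- (SE 0.13, edgeR adjusted p = 0.989).

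Over the 5 cell types of P0, 37 pairs of a member and a cell type were tested and none was called against +/+ (0.112% of all tests called) or against +/- (0.109%). Against +/+, 4 of 37 had an unadjusted p under 0.05, where 4.78% of all tests did. These were Ddit3 in primary progenitors (log2 fold change -0.52, edgeR adjusted p = 0.993), Hspa5 in photoreceptors (0.32, edgeR adjusted p = 0.979), and Atf4 (-0.38) and Ppp1r15a (-0.84) in amacrine cells, both at an edgeR adjusted p of 0.998. DESeq2 called 0 with 0 at an unadjusted p under 0.05, and limma 0 of 35 with 4. Against +/-, 1 of 37 had an unadjusted p under 0.05 in edgeR, 0 in DESeq2 and 2 of 35 in limma, with 0 called by each.

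The one was Ppp1r15a in amacrine cells, whose product GADD34 directs a phosphatase to eIF2α and so ends the response. It stood at 18.9 CPM in the +/+ retina, 18.2 and 17.7 in the +/- retinas, and 10.8 and 10.2 in the retinas labelled -/-. Both -/- values were below the other 3, on 16 and 18 UMIs, as held for 10.6% of genes in these cells, and the log2 fold change from +/- was -0.76 (SE 0.30, edgeR unadjusted p = 0.0248, adjusted p = 0.998). The 18 heat shock and immediate early genes lay the same way in amacrine cells, at a sum of 2352 CPM in +/+, 2678 and 2215 in +/-, and 1941 and 2150 in the retinas labelled -/-. Of 15 tested, 7 had an unadjusted p under 0.05 against +/- in edgeR, where 4.91% of all tests over the 5 cell types did. Of these genes 0 were called, and their part in the Ppp1r15a value was not tested. In primary progenitors Ppp1r15a was 34.6 CPM in +/+, 28.9 and 34.4 in +/-, and 30.9 and 42.1 in the retinas labelled -/-, which overlap.

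**Figure D2:**
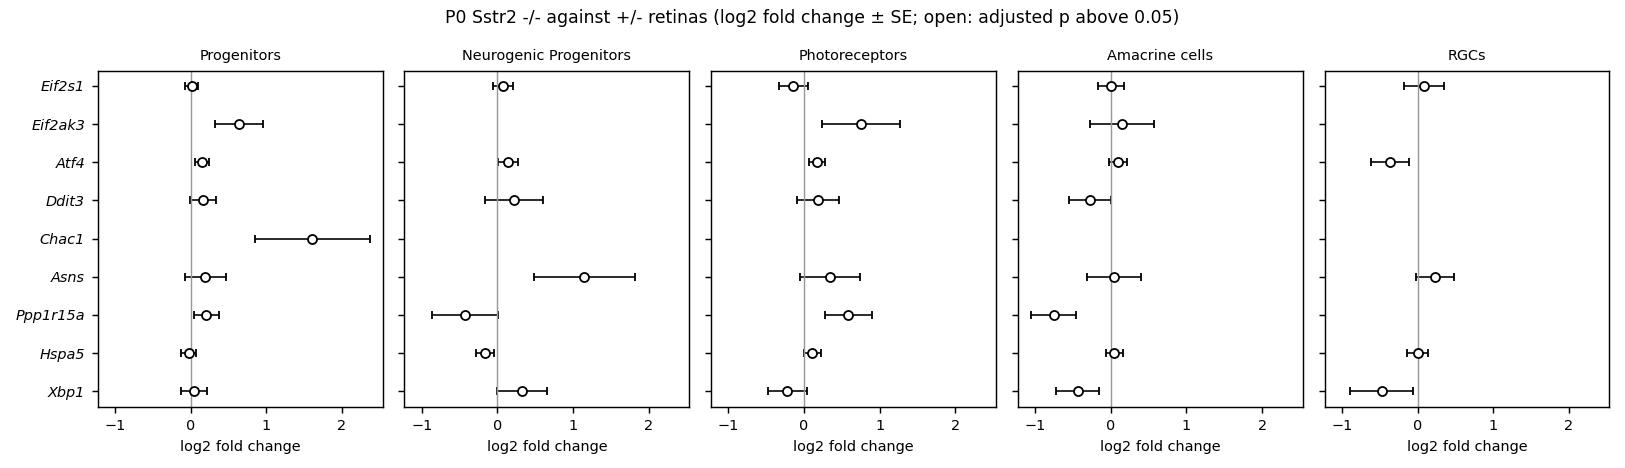
Log2 fold change (horizontal axis) of the P0 retinas labelled -/- from the +/- retinas for each member tested (vertical axis), with 1 panel per cell type; bars are ± 1 SE from edgeR and open circles mark an adjusted p above 0.05, which all 37 have. The value for Ppp1r15a in amacrine cells is -0.76 and that for Eif2s1 in neurogenic progenitors 0.07.

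At P14, 28 pairs were tested. None was called against +/+ (0.0976% of all tests called), with 0 at an unadjusted p under 0.05 in edgeR, DESeq2 and limma, or against +/- (0.0705%), with 1 in edgeR, 0 in DESeq2 and 3 of 25 in limma. The one in edgeR was Ddit3 in bipolar cells, at 35.04 CPM in the +/+ retina, 57.1 and 48.5 in +/-, and 25.4 and 32.1 in the retinas labelled -/-. Its log2 fold change from +/- was -0.91 (SE 0.41, edgeR adjusted p = 0.999). No gene of the other lists was called at P14, and those called at P0 were Egr1 in RGCs against +/+ (log2 fold change -1.58, edgeR adjusted p = 0.0167), with Jun (-0.999, edgeR adjusted p = 0.00269) and Dusp1 (-1.46, edgeR adjusted p = 0.0496) in RGCs against +/-. These 3 are immediate early genes. With 1 retina of genotype +/+ at each age, the spread comes from the other 4.

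The levels were then described by cell type, which the authors named from clusters of the same counts, so they carry no test. How many of all genes separate cell types without overlap was not counted, here or for the single members below. In the explants Eif2s1 had its highest mean in primary progenitors, at 139 CPM (lowest 119, median 139, highest 159, n = 8), followed by neurogenic progenitors at 136 CPM, amacrine cells at 102 CPM and photoreceptors at 52.7 CPM (lowest 37.6, median 51.8, highest 71.3). The progenitor classes overlapped, and the lowest amacrine value, 83.3 CPM, was above the highest photoreceptor value. Explant RGCs gave 0 to 71.3 CPM on 0 to 14 UMIs per explant. At P0 primary and neurogenic progenitors again overlapped at means of 127 and 128 CPM, above amacrine cells at 82.0, RGCs at 76.4 and photoreceptors at 74.3, which overlapped with each other. At P14 Eif2s1 was 49.4 CPM in the +/+ rods, 47.7 and 50.5 in the +/- and 49.7 and 47.1 in those labelled -/-, a range of 47.1 to 50.5 CPM. Every cone value, at 54.3 to 112 CPM, was above the rods, while bipolar cells at 32.3 to 55.9 CPM overlapped them and Müller glia had the lowest mean among cell types with 10 or more cells in every retina, 30.3 CPM (25.03 to 41.0 CPM). Amacrine cells of P14, with 4 to 23 cells per retina, spread from 0 to 150.3 CPM.

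**Figure D3:**
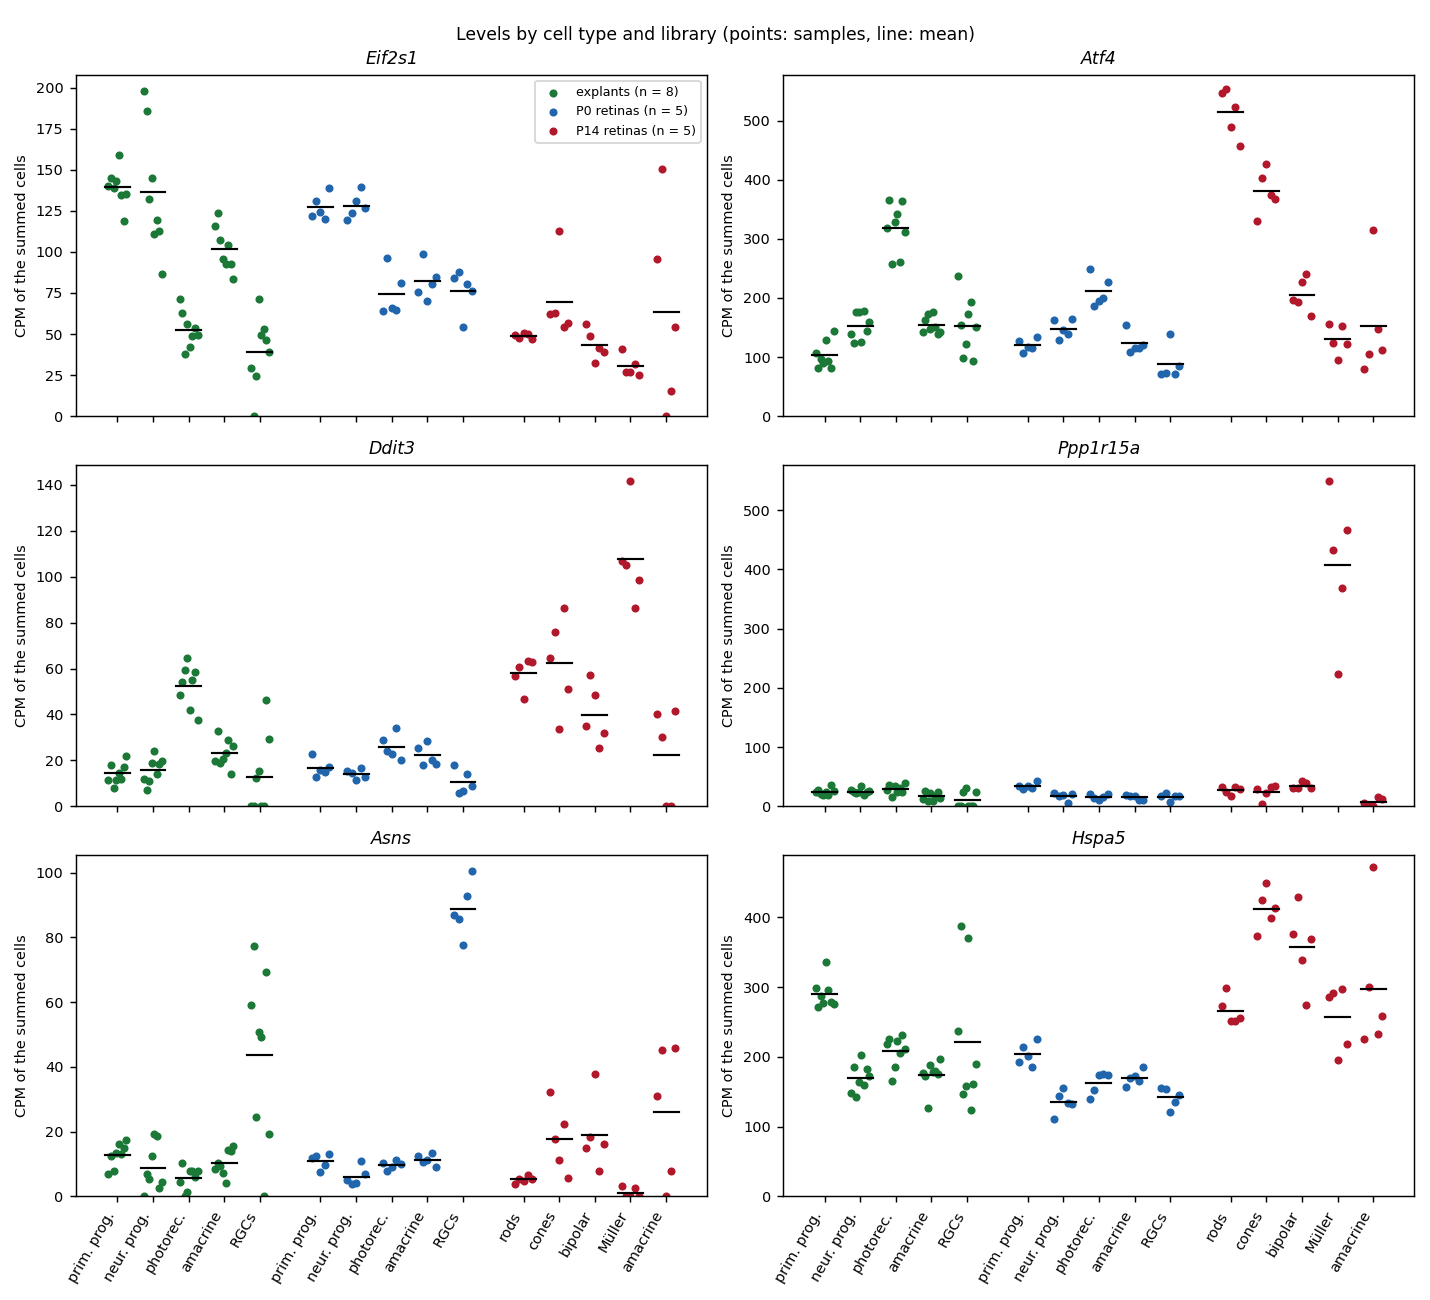
Level in CPM of the summed cells (vertical axis) of Eif2s1, Atf4, Ddit3, Ppp1r15a, Asns and Hspa5 in each cell type (horizontal axis) of the explants (green, n = 8), P0 retinas (blue, n = 5) and P14 retinas (red, n = 5); points are samples and lines means. Ppp1r15a and Ddit3 are highest in P14 Müller glia, with means of 408 and 108 CPM, Atf4 in P14 rods at 514 CPM, and Asns in P0 RGCs at 88.7 CPM.

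Eif2ak3, the gene of the PERK kinase, was sparse, with 147 UMIs in the explants, 329 at P0 and 196 at P14. Its mean was 4.31 to 8.45 CPM in the explant cell types other than RGCs. At P14 it was 17.2 CPM in the +/+ rods, 11.8 and 12.03 in the +/- rods and 16.0 and 11.8 in rods labelled -/-, which overlap. Values in cones ranged from 6.39 to 17.4 CPM.

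By its mean over samples, Atf4 was highest in photoreceptors of the explants and of P0 and in rods at P14. In explant photoreceptors its lowest, median and highest values were 257, 323 and 365 CPM, and no other explant cell type exceeded 237 CPM. At P0 photoreceptors stood at 248.8 CPM in the +/+ retina, 187 and 195 in +/-, and 200.03 and 226 in the retinas labelled -/-, above neurogenic progenitors at 130 to 165 CPM. At P14 rods stood at 547 CPM in +/+, 554 and 488 in +/-, and 523 and 457 in the retinas labelled -/-, all above cones at 331 to 427 CPM, while bipolar cells ranged from 169.5 to 240 CPM and Müller glia from 94.5 to 156 CPM.

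Ddit3, a gene that ATF4 switches on, was highest in explant photoreceptors as well, with a lowest, median and highest value of 37.8, 54.7 and 64.4 CPM, above amacrine cells at 14.1 to 32.7 CPM. At P14 it was highest in Müller glia, at 107 CPM in +/+, 105 and 142 in +/-, and 86.5 and 98.45 in retinas labelled -/-. The lowest Müller value was above the highest of rods (63.2 CPM), bipolar cells (57.1 CPM) and cones (86.2 CPM). Part of the Ddit3 gene lies opposite Mars and Gm4189 on the other strand.

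Trib3, a pseudokinase that restrains ATF4 and CHOP, had 7 UMIs in the explants and 15 at P0. At P14 it had 56, of which 47 were in rods, at 5.99 CPM in +/+, 6.40 and 6.01 in +/-, and 5.06 and 4.84 in retinas labelled -/-. Chac1, which degrades glutathione, had 24 UMIs in the explants, 17 of them in primary progenitors and 0 in neurogenic progenitors and photoreceptors. At P0 it had 67, of which primary progenitors held 9, 9, 1, 10 and 17 in the +/+, the +/- and the -/- retinas in turn.

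Asns was highest in RGCs at P0, with 87.0 CPM in +/+, 85.6 and 77.6 in +/-, and 92.9 and 100.5 in retinas labelled -/-, against 3.87 to 13.5 CPM in all other P0 cell types and retinas. The RGC values rest on 23 to 66 UMIs per retina. Explant RGCs gave 0 to 77.4 CPM on 24 UMIs in all.

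Hspa5 encodes BiP, the main chaperone of the endoplasmic reticulum. It was highest in primary progenitors among the explant cell types other than RGCs, at a lowest, median and highest value of 272, 283 and 335 CPM, above photoreceptors at 166 to 232 CPM. Primary progenitors also led at P0, at 192 CPM in +/+, 214.6 and 202 in +/-, and 184.99 and 225 in retinas labelled -/-. They were above amacrine cells in 5 of 5 retinas, though the highest amacrine value, 184.96 CPM, nearly reached the lowest of the progenitors. At P14 cones led, at 373 to 450 CPM, overlapping bipolar cells at 275 to 430 CPM and amacrine cells, which held 6 to 73 UMIs per retina, at 226 to 472 CPM. By the mean over single cells, amacrine cells led Hspa5 at 442 CPM, with cones at 380. Xbp1, the factor that IRE1 splices, was 65.1 CPM in +/+ bipolar cells at P14, 84.0 and 75.4 in +/-, and 82.6 and 69.6 in those labelled -/-, overlapping cones at 45.0 to 96.1 CPM and above rods at 36.2 to 56.6 CPM.

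Ppp1r15a set Müller glia apart from the other cell types at P14. In Müller glia it stood at 549 CPM in the +/+ retina, 432 and 223 in the +/- retinas, and 369 and 467 in the retinas labelled -/-. In every other P14 cell type and retina it was 0 to 43.1 CPM, so the lowest Müller value was above all of them. The share of all genes that separate Müller glia in this way was not counted. With each cell thinned to 2000 UMIs, 106 of 248 Müller cells (42.7%) had a Ppp1r15a UMI, against 4.86% of 1975 rods, 3.48% of 115 cones and 5.57% of 521 bipolar cells; 18 Müller cells, 296 rods and 57 bipolar cells under 2000 UMIs were left out. Without thinning the shares were 69.5% of 266 Müller cells, 8.85% of rods, 20.9% of cones and 13.8% of bipolar cells, at median depths of 15108, 3374, 10245 and 3939.5 UMIs per cell. None of these cell types is known to lack Ppp1r15a, so no background share is given for it.

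The immediate early genes were high in the same cells. The summed level of 18 heat shock and immediate early genes was 20702 to 27590 CPM in Müller glia and 1729 to 9591 CPM in the other P14 cell types. Fos stood at 5358 to 7096 CPM, Jun at 3313 to 4622, Egr1 at 1606 to 2030 and Atf3 at 87.7 to 581 CPM in Müller glia, while the heat shock gene Hspa1a was at 0 to 35.6 CPM. The 37 measured ATF4 and CHOP target genes share Atf3 with that list. They summed to 2609 to 3381 CPM in Müller glia against 943 to 1303 CPM elsewhere. The members Eif2s1, Eif2ak3, Atf4, Asns, Trib3 and Hspa5 lay the other way, with their lowest P14 means in Müller glia. Atf4 had a mean of 130 CPM there, against 514 CPM in rods. The Hspa5 mean of 258 CPM was close to that of rods, 266 CPM. For Asns the mean was 1.13 CPM, against 5.25 CPM in rods. Asns and Trib3 rested on 6 and 1 UMIs in Müller glia. The 33 genes of the IRE1 and ATF6 arms summed to 3047 to 3266 CPM in Müller glia and to 2403 to 3370 CPM in rods, cones and bipolar cells. All 7 Müller markers were present there at a sum of 24974 to 27086 CPM, and 10 photoreceptor genes summed to 1222 to 3563 CPM. The part of the immediate early genes in the Ppp1r15a level was not tested.

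**Figure D4:**
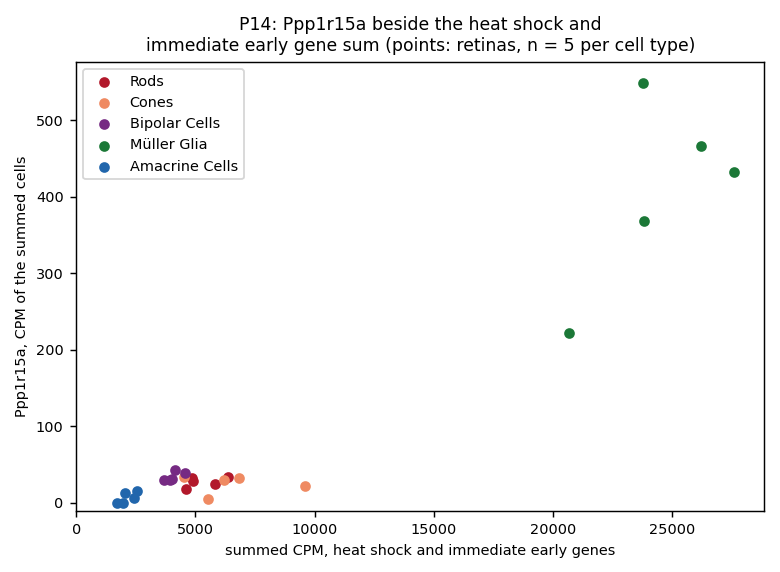
Ppp1r15a level in CPM (vertical axis) against the summed CPM of heat shock and immediate early genes (horizontal axis) in the P14 retinas, 1 point per retina and cell type. The 5 Müller glia points lie at 223 CPM of Ppp1r15a or more, and all other points at 43.1 CPM or less.

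Explants at all doses were compared with P0 retinas of all genotypes cell type by cell type, an age that the culture period approaches. In 28 pairs of a member and a cell type, 15 were called by edgeR, against 44.4% of all tests, with 16 at an unadjusted p under 0.05 against 51.3% of all tests. The 28 include pairs in neurogenic progenitors, whose explant Eif2s1 counts were used in choosing the genes. DESeq2 called 13 of 28, against 40.2% of all tests, and limma 15 of 27, against 38%. Culture, library, strain, litter and depth cannot be told apart here, and the share of Xist-positive cells differed between the samples as well. Fold changes are after TMM scaling, so they can differ from the ratio of mean CPM.

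Photoreceptors had 5 of 6 members called, where 48% of genes were. Ddit3 was higher in explants at a mean of 52.5 against 26.04 CPM (log2 fold change 0.93, SE 0.15, edgeR adjusted p = 6.55e-06). At P0 its values were 28.8 CPM in +/+, 24.2 and 22.8 in +/-, and 34.1 and 20.2 in retinas labelled -/-, all below the lowest explant value of 37.8 CPM. Atf4 was higher, at 318 against 211 CPM (0.48, SE 0.08, edgeR adjusted p = 1.79e-05), and no explant value was below the highest P0 value of 248.8 CPM. How many of all genes separate in this way, as Ddit3 and Atf4 do, was not counted. Ppp1r15a was higher, at 28.8 against 16.2 CPM (0.77, SE 0.20, edgeR adjusted p = 0.00177), as was Hspa5 at 208 against 163 CPM (0.25, SE 0.08, edgeR adjusted p = 0.0104). Eif2s1 was lower, at 52.7 against 74.3 CPM (-0.56, SE 0.13, edgeR adjusted p = 0.000698), with overlapping values. Photoreceptors of P0 also held more of 8 primary progenitor markers, at a sum of 1341 to 2232 CPM against 287 to 672 CPM in explant photoreceptors, and the part of these cells in the differences was not tested.

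In primary progenitors 3 of 7 members were called, where 49.7% of genes were. Hspa5 was higher in explants, at 290 against 204 CPM (0.39, SE 0.06, edgeR adjusted p = 8.73e-06), with no overlap between 272 to 335 and 185 to 225 CPM. The share of all genes without such overlap was not counted. Ppp1r15a was lower, at 24.5 against 34.2 CPM (-0.61, SE 0.13, edgeR adjusted p = 0.000396), and so was Atf4, at 103 against 120 CPM (-0.33, SE 0.10, edgeR adjusted p = 0.00671), both with overlapping values. The Eif2s1 difference was 0.00 (SE 0.07, edgeR adjusted p = 0.988).

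In neurogenic progenitors 0 of 4 members were called by edgeR, where 35.4% of genes were. Hspa5 had the smallest adjusted p, at 170 against 136 CPM (0.23, SE 0.10, edgeR adjusted p = 0.0587). The explant Eif2s1 counts of these cells were used in choosing the genes, so this comparison is not independent of that choice. In amacrine cells 3 of 7 were called, where 37.7% of genes were. Xbp1 was lower in explants, at 10.8 against 20.4 CPM (-0.94, SE 0.21, edgeR adjusted p = 0.000902), while Eif2s1 at 102 against 82.0 CPM (0.29, edgeR adjusted p = 0.0186) and Atf4 at 154 against 123 CPM (0.26, edgeR adjusted p = 0.0133) were higher. In RGCs 4 of 4 were called, where 54% of genes were: Atf4 (0.78, edgeR adjusted p = 0.00318) and Hspa5 (0.43, edgeR adjusted p = 0.0478) higher, Asns (-1.26, edgeR adjusted p = 0.000438) and Eif2s1 (-0.66, edgeR adjusted p = 0.0395) lower. The RGC classes differed in their defining markers, as given above, and explant RGCs held 12913 to 206171 UMIs per sample.

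**Figure D5:**
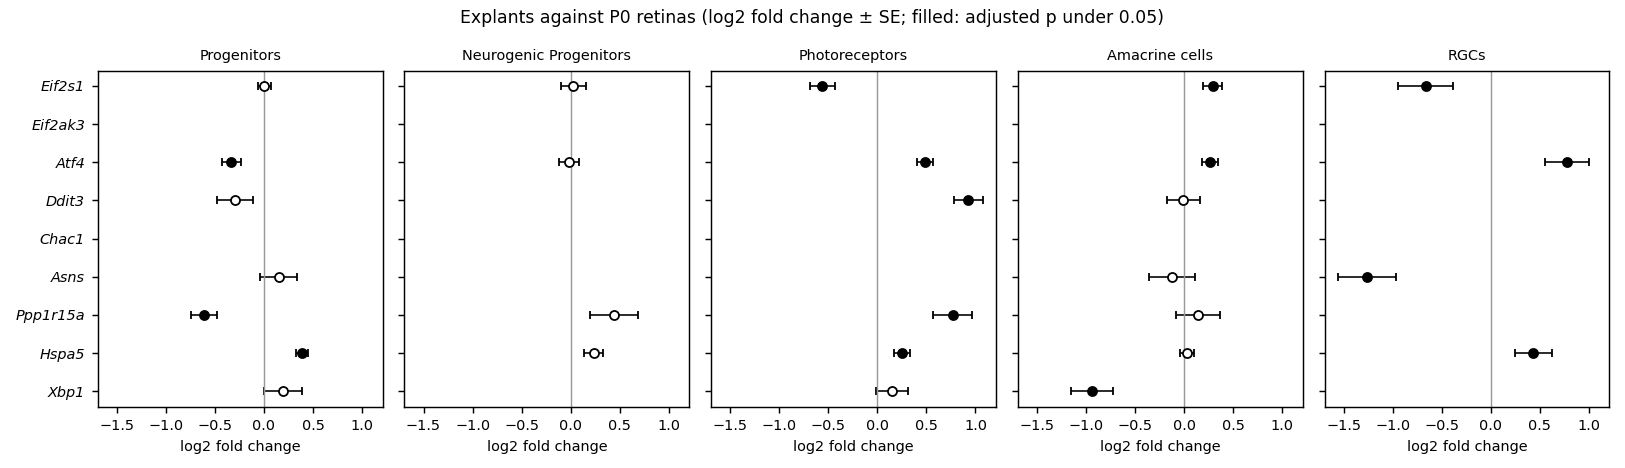
Log2 fold change (horizontal axis) of the 8 explants from the 5 P0 retinas for each member tested (vertical axis), 1 panel per cell type; bars are ± 1 SE from edgeR and filled circles mark an adjusted p under 0.05. In photoreceptors 5 of 6 circles are filled and in neurogenic progenitors 0 of 4.

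These results rest in part on the number of genes per cell, which stays under 2500 in the explant data. With only cells of under 2500 genes in both libraries, 8 of 20 member tests were called, where 30.9% of all tests were. In photoreceptors Ddit3 (0.66), Ppp1r15a (1.25), Hspa5 (0.30) and Atf4 (0.26) stayed called and higher in explants, and in primary progenitors Hspa5 (0.50) was again higher and Ppp1r15a (-0.56) lower. Eif2s1 was at -0.06 in photoreceptors (edgeR adjusted p = 0.816) and at -0.061 in amacrine cells (edgeR adjusted p = 0.84), and neither was called. Atf4 in primary progenitors and Atf4 and Xbp1 in amacrine cells were not among the called pairs either. The remaining called pairs had not been called with all cells. RGCs could not be tested, since no P0 RGC had under 2500 genes. With 0 nM explants against +/+ and +/- retinas alone, Eif2s1 in photoreceptors was at -0.27 (edgeR adjusted p = 0.363), with 0 nM values of 71.3 and 62.7 CPM against 63.7 CPM in +/+ and 96.5 and 65.9 CPM in +/-.

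The difference of explants from P0 itself differed between primary progenitors, photoreceptors and amacrine cells in 10 of 19 comparisons of members by an exact permutation test adjusted over all genes, where 16.5% of all genes' tests passed. The pairs of types share cell types, so these comparisons are not independent of each other. With only cells of under 2500 genes 1 of 19 passed.

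Other genes of the pathways moved in both directions between explants and P0. Of the ATF4 and CHOP targets, 16 of 28 were called in primary progenitors, 5 higher and 11 lower, with a median log2 fold change of -0.13 against 0.02 over all genes, where 49.7% of all genes were called, and 11 of 21 in photoreceptors, 4 higher and 7 lower, with a median of -0.26 against 0.01, where 48% were. In neurogenic progenitors 8 of 20 were called, 2 higher and 6 lower, where 35.4% of all genes were. In amacrine cells it was 7 of 21, 2 higher and 5 lower, where 37.7% of all genes were. Slc38a2, an amino acid transporter, was lower in primary progenitors (-1.22), neurogenic progenitors (-1.50) and amacrine cells (-1.06), and Psat1, of serine synthesis, in photoreceptors (-1.48). Bbc3, the pro-apoptotic gene PUMA, was higher in primary progenitors (1.33) and photoreceptors (1.65). Of the IRE1 and ATF6 arms, 11 of 30 were called in primary progenitors, 7 higher and 4 lower, 7 of 25 in neurogenic progenitors, 6 higher and 1 lower, 13 of 29 in photoreceptors, 6 higher and 7 lower, and 9 of 29 in amacrine cells, 5 higher and 4 lower. Each share of the IRE1 and ATF6 arms is below that of all genes in the same cells, 49.7%, 35.4%, 48% and 37.7%. Derl1, of ER-associated degradation, was higher in primary progenitors (1.09), neurogenic progenitors (0.65), photoreceptors (0.77) and amacrine cells (0.75).

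Among genes around eIF2 itself, 5 of 16 were called in primary progenitors, 4 of 14 in neurogenic progenitors, 5 of 14 in photoreceptors and 6 of 15 in amacrine cells. Over all genes 49.7%, 35.4%, 48% and 37.7% were called in these cell types in turn. The same shares apply to the lists that follow. The subunits of eIF2B, which reloads eIF2 with GTP, moved both ways: Eif2b4 was lower in primary progenitors (-1.04), neurogenic progenitors (-0.87), photoreceptors (-0.64) and amacrine cells (-0.65), and Eif2b5 was higher in primary progenitors (0.52), neurogenic progenitors (0.56) and amacrine cells (0.57). Of the heat shock and immediate early genes, 13 of 14 were called in primary progenitors, 10 of them lower, Atf3 most (-2.74), with a median of -1.01. In photoreceptors 7 of 13 were called, 3 higher and 4 lower, and in neurogenic progenitors and in amacrine cells 7 of 11, 4 higher and 3 lower in each. Of the hypoxia and glycolysis genes, 5 of 12 were called in primary progenitors, 3 of 9 in neurogenic progenitors and 6 of 11 in photoreceptors, in both directions, and 6 of 12 in amacrine cells, all 6 lower in explants.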

How the data were processed

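MULTI-seq cells of 8 explant samples and 10 retina samples were analysed. The counts were deposited as raw UMIs of each gene in each cell, which the authors obtained with the CellRanger pipeline, deMULTIplex and Seurat; per the submitters' notes these were Cell Ranger 3.1.0 and Seurat 3 on mm10, and the filters on cells are not given in the sources used here. The SCT matrices, as deposited, hold a natural log: that of SCTransform's depth-corrected count after adding 1. Cell types and the condition of each cell are the authors' deposited annotation. No unused column of per-sample values was found (0), and no doublet caller was run.

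For every sample, the UMIs of all cells of a type were added up and given as CPM. Sums were tested across all genes with the quasi-likelihood test of edgeR 4.0.16 under R 4.3.3 (TMM, its filter on low counts, all groups of a library in 1 fit, Benjamini-Hochberg adjustment within cell type and comparison, threshold 0.05). Explants and P0 retinas were fitted together. The SE of an edgeR fold change was derived as its absolute log2 value divided by the square root of the test's F statistic. Alternatives were DESeq2 1.42.0, DESeq2 size factors, no filter, limma 3.58.1 on log2(CPM + 1) of back-transformed SCT sums, leaving out the 5% of cells with the most UMIs, other reference groups, levels as the mean over single cells, and each sample in turn. After the data were seen, the restriction to cells under 2500 genes and the test of differences between cell types, adjusted over all genes of a pair of types, were added. The smaller permutation tests are exact and two-sided. edgeR was tested on simulated data with 200 changed genes and the permutation test with 200 and 2000. For 500 nM against 0 nM in primary progenitors, edgeR recovered 4.5% of 1.5-fold and 46% of 2-fold changes. For -/- against +/- in P0 neurogenic progenitors it recovered 13% and 49.5%, and for explants against P0 in photoreceptors 62% and 93%. The permutation test recovered 0% of 200 changed genes at every fold tried. With 2000 it recovered 0% at 1.5-fold, 70.15% at 2-fold and 99.1% at 4-fold, the last with 567 false calls. The members and lists were chosen with earlier results of these data known. The genes named are the 10 members in every comparison, at most the 3 called genes of largest change per list and comparison, the 3 genes most like Eif2s1, Atf4, Asns and Hspa5 over the explant sums, and Sstr2, Xist and Y-linked genes where they bear on a label; the immediate early genes of Müller glia were named after their values were seen. Positions are those of GENCODE M21 on GRCm38; no other transcript matched the 3′ end of a member at 90% identity over 150 bases. PCR duplicates were collapsed by UMI.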

Additional observations from a re-analysis of the deposited data

Results flagged for a closer look

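In 84 groups of 4 to 10 samples of a member and a cell type with more than 3 UMIs in every sample, 7 held a sample whose gap to the others passed Dixon's 95% criterion; chance gives about 1 in 20. In the explants these were Hspa5 in primary progenitors of 50 nM explant 1, at 335 CPM against 272 to 298.5 in the others, and Hspa5 in amacrine cells of 5 nM explant 1, at 126 against 172 to 197 CPM. At P0 they were Atf4 in amacrine cells of the +/+ retina, at 155 against 109 to 120 CPM, Atf4 in RGCs of +/- retina 2, at 138 against 71.8 to 84.9 CPM, and Ppp1r15a in neurogenic progenitors of retina 1 labelled -/-, at 5.92 against 17.4 to 21.9 CPM. At P14 they were Eif2s1 in cones of +/- retina 2, at 112 against 54.3 to 62.6 CPM, and Atf4 in amacrine cells of the same retina, at 314 against 80.5 to 147 CPM. In this retina the cones gave 10 Eif2s1 UMIs and the amacrine cells 4 Atf4 UMIs. Of its cells 72.7% had an Xist UMI, against 1.8% to 4.3% in the other P14 retinas.

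The difference of explants from P0 itself differed between cell types in 10 of 19 comparisons, by permuting the 13 samples in all 1287 arrangements (two-sided, adjusted over the 7081 to 7473 genes of each pair of types, smallest unadjusted p 0.001554); 16.5% of all genes' tests passed. Such a p passes the adjustment only where many genes differ at once, as they did here. Since the pairs share cell types, the same member can pass in more than 1 pair. Values are explants minus P0 of the within-sample log2(CPM + 1) difference of 2 cell types. For photoreceptors minus primary progenitors it was -0.62 for Eif2s1 (exact permutation, adjusted p = 0.0154), 0.83 for Atf4 (exact adjusted p = 0.0154), 1.23 for Ddit3 (exact adjusted p = 0.0313) and 1.26 for Ppp1r15a (exact adjusted p = 0.0154). For amacrine cells minus primary progenitors it was 0.57 for Atf4 (exact adjusted p = 0.0471) and -0.48 for Hspa5 (exact adjusted p = 0.0209). For photoreceptors minus amacrine cells it was -0.80 for Eif2s1 (exact adjusted p = 0.016), 0.95 for Ddit3 (exact adjusted p = 0.0313), 0.32 for Hspa5 (exact adjusted p = 0.0374) and 1.14 for Xbp1 (exact adjusted p = 0.0245). With only cells of under 2500 genes, 1 of 19 passed, Ppp1r15a in photoreceptors minus primary progenitors at 1.72 (exact adjusted p = 0.0427), where 2.3% of all genes' tests passed. There Ddit3 was at -0.046 for photoreceptors minus primary progenitors and Hspa5 at -0.10 for photoreceptors minus amacrine cells. The part of depth per cell in the others was not tested further.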

How the results depend on the processing

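No paired analysis was possible because the annotation gives barcodes and no replicate numbers. The count of members called was 0 for 500 nM against 0 nM and for each contrast of P0 and P14 under every alternative run, including each left-out sample. For explants against P0 it was 15, with 13 to 15 on leaving out a sample (41.6% to 43.1% of all tests called). It was 8 of 20 with only cells under 2500 genes (30.9%), where fewer cells entered. With 0 nM explants against +/+ and +/- retinas alone it was 8 of 35 (18.7%), where fewer samples entered. With cells under 2500 genes Eif2s1 in amacrine cells reversed to -0.061, and of the 19 differences between cell types 1 passed in place of 10, with Ddit3 reversed to -0.046 and Hspa5 to -0.10. By the mean over cells 5 of the 19 passed, where 10.2% of all genes' tests did, and on leaving out a sample 5 to 10 did. Without any one retina 5 or 6 passed, where fewer arrangements raise the smallest p. Of all genes' tests, 9.93% to 12.3% passed without a retina and 14.0% to 15.5% without an explant. The cell type with the highest level was the same for 25 of 29 members and libraries by the mean over cells, and changed for Eif2s1 in explants and at P0 (between primary and neurogenic progenitors) and for Hspa5 (cones to amacrine cells) and Xbp1 (bipolar cells to cones) at P14. Eif2s1 in amacrine cells lost its call without 0 nM explant 1 (0.24), the +/+ retina (0.26) or +/- retina 2 (0.23), and Eif2s1 and Hspa5 in RGCs lost theirs without any of several samples (Eif2s1 -0.72 to -0.56, Hspa5 0.33 to 0.59). Without a filter Hspa5 and Atf4 in RGCs were at 0.04 and 0.39 and were not called, and limma on SCT sums gave -0.06 for Atf4 in primary progenitors; the cause was not tested. The log2 ratio of Eif2s1 in explant neurogenic progenitors at 500 nM ranged from -1.15 to -0.77 without 1 of the 4 explants, and the Xist difference from 0.35 to 0.53 without 1 of the 5. Both ranges describe counts used in choosing the genes and are no support for a difference. Depth limits the sparse members: Trib3, Chac1 and Eif2ak3 had few UMIs per cell type.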

Other observations

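Over the 40 sums of an explant and a cell type, the genes whose log2(CPM + 1) was most like that of Eif2s1, among 6019 genes with at least 500 UMIs, were Srsf7 (r = 0.97), Lrrc59 (r = 0.95) and Cenpv (r = 0.95); without the small RGC sums, over 32, r was 0.92, 0.82 and 0.87. For Atf4 they were Tax1bp1 (0.88), Elovl4 (0.88) and Lcorl (0.87), which stood at 0.92, 0.95 and 0.94 without RGCs. For Asns they were Snx4 (0.72), Phc1 (0.66) and C2cd5 (0.63), which stood at 0.44, 0.27 and 0.14 without RGCs, and for Hspa5 Pgam1 (0.74), Fkbp2 (0.71) and Lrrc42 (0.68), at 0.83, 0.71 and 0.81 without RGCs. The sums share libraries, depth and cell type, and the values are descriptions.

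Within explant cells thinned to 2000 UMIs, 112 cells had a UMI of both Atf4 and Ddit3, where 99.9 would if these fell independently within each sample and cell type, a ratio of 1.12 that was above 1 in 7 of 8 explants. At P0 that ratio was 0.98 and at P14 1.01, each above 1 in 2 of 5 retinas. Without thinning the ratio was 1.08 in the explants (6 of 8), 1.17 at P0 (5 of 5) and 1.09 at P14 (5 of 5). The independent number takes no account of depth per cell, which can raise every ratio without thinning. For Hspa5 and Xbp1 it was 81 against 69.0 cells in the explants (1.17, 6 of 8), with ratios of 1.22 at P0 and 1.13 at P14, each above 1 in 4 of 5 retinas. In the explants it was 350 against 321 cells for Eif2s1 and Hspa5 (1.09, 8 of 8), with 1.02 at P0 and 1.02 at P14. For Eif2s1 and Atf4 it was 243 against 255 (0.95, above 1 in 1 of 8), which became 1.03 (5 of 8) without thinning. Thinned explant ratios of Atf4 were 1.08 with Asns (4 of 8), 1.00 with Ppp1r15a (2 of 8), 0.97 with Hspa5 (2 of 8) and 0.93 with Xbp1 (4 of 8). Those of Ddit3 were 0.64 with Ppp1r15a (1 of 8) and 2.02 with Asns (5 of 8), on 9 and 10 cells. Without thinning Ddit3 with Asns was at 1.23 (4 of 8) and Eif2s1 with Hspa5 at 1.05 (6 of 8). Thinned ratios of Asns with Ppp1r15a were 1.35 in the explants (4 of 8), 1.84 at P0 (4 of 5) and 1.61 at P14 (2 of 5). Asns and Chac1 shared 1 thinned explant cell, and 10 against 1.40 without thinning (5 of 8). Other pairs of members are not given.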
